A study of Homo sapiens with 9 samples.

Results

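CGA and NKIRAS2 had a lower signal in human Flip-In-293 cells that carried a short hairpin RNA against RBFOX2, and they are described here with NKIRAS1, the paralogue of NKIRAS2. CGA and NKIRAS2 were selected on measured values, namely a fall with the RBFOX2 hairpin and none in the arrays labelled CPSF3 knockdown, so their own differences are given as a description with no test. The standard errors and intervals printed for them cover the spread among arrays and take no account of that selection. No such interval is read as a test. NKIRAS1 was taken for its kinship, and its differences were tested. The members were the probe sets that the platform annotation gives exactly 1 gene symbol among these 3, which made 30 probe sets (6 for CGA, 15 for NKIRAS2 and 9 for NKIRAS1) of 354600 with 1 symbol and of 1384231 on the array.

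The study measured total RNA on 9 Affymetrix Human Exon 1.0 ST arrays, which read most exons of a gene through separate probe sets. Flip-In-293 is a derivative of the embryonic kidney line HEK293 with a single site for inserting transgenes. All cells, the controls included, were infected with a lentivirus that expressed a hairpin and were kept for 10 days. There were 3 arrays with the RBFOX2 hairpin, 3 arrays labelled CPSF3 knockdown and 3 arrays with a non-silencing hairpin, called control here. RBFOX2 binds RNA and steers the choice of alternative exons, and CPSF3 makes the cut in pre-mRNA that precedes polyadenylation. The sources used here do not give the number of hairpins per target or of cell clones. Titles name the replicates biological and the series text names them technical, so every p-value covers the spread among these arrays only, and that spread may be technical. With 3 arrays against 3, the smallest p of an exact permutation test is 0.1, so limma fits over all genes were used.

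CGA encodes the alpha subunit that is shared by the glycoprotein hormones, namely chorionic gonadotropin, luteinizing hormone, follicle-stimulating hormone and thyrotropin. Each hormone pairs it with a beta subunit of its own, and the gene is known for its expression in the anterior pituitary and the placenta, where cyclic AMP signalling raises its transcription. NKIRAS1 and NKIRAS2 encode kappaB-Ras proteins, small RAS-like proteins that bind the inhibitors of NF-kappaB and slow their degradation. They are also known to act with the GTPase-activating complexes that switch off the Ral GTPases.

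The promoters of CGA and NKIRAS2 are shown because these are the 2 selected genes, and because the elements that bind cyclic AMP-responsive factors at CGA are known. The sequences are the 250 bases before the start of transcription, from RefSeq on GRCh38.p14, 5′ to 3′ on the gene's strand. CGA lies on chromosome 6 (minus strand, chr6:87095107-87095356) and NKIRAS2 on chromosome 17 (plus strand, the first of 2 listed starts, chr17:42017326-42017575). The capitals mark matches to the motifs searched.
CGA: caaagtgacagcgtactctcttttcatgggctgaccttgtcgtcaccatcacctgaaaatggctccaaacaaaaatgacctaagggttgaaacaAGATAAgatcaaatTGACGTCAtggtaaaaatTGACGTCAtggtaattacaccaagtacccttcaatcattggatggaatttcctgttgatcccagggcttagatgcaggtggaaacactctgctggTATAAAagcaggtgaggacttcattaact
NKIRAS2: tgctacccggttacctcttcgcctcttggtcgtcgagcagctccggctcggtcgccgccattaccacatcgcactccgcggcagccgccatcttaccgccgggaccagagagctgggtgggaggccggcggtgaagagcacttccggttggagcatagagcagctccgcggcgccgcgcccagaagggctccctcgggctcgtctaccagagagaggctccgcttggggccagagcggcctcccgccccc

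Both strands were searched for the cyclic AMP response element TGACGTCA, the GATA element AGATAA, the TATA box TATAAA and the E-box CACGTG, none of which overlapped another in these windows. The CGA window held 2 cyclic AMP response elements, at 142 to 135 and at 124 to 117 bases before the start, 1 GATA element at 156 to 151 bases and 1 TATA box at 29 to 24 bases. Of 35116 promoter windows of the same length, 1.65% held TGACGTCA at least once and 0.0541% (19 windows) held it 2 or more times. AGATAA was in 9.17% of the windows, TATAAA in 10.7% and CACGTG in 6.34%. The 2 NKIRAS2 windows and the 2 NKIRAS1 windows held none of these letters. GC content was 42% for CGA, 69.6% and 66.4% for the 2 starts of NKIRAS2, and 60% and 62% for the 2 starts of NKIRAS1, against a median of 58% over all windows. No motif match was set against the array values in a test.

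CGA had the lowest difference of all genes between the RBFOX2 hairpin arrays and the controls. Its gene level, the median log2 signal over its 4 probe sets that passed a filter on low signal, was 8.90, 9.01 and 8.77 on the RBFOX2 hairpin arrays. The arrays labelled CPSF3 knockdown gave 10.17, 10.38 and 10.29 and the control arrays 10.70, 10.48 and 10.33. The highest RBFOX2 hairpin array lay 1.32 below the lowest control array and 1.16 below the lowest array labelled CPSF3 knockdown, so the RBFOX2 hairpin arrays overlapped neither group. The means were 8.89 ± 0.12 with the RBFOX2 hairpin, 10.28 ± 0.11 in the arrays labelled CPSF3 knockdown and 10.50 ± 0.18 in controls (SD, n = 3 each). The difference of the RBFOX2 hairpin arrays from control was -1.61 ± 0.12 (SE), a signal 3.05-fold lower, or 32.8% of control (95% interval 27.2% to 39.5%). Array signal has no zero and holds some background, so these are shares of signal. In bulk RNA, fewer cells that express a gene and less of its RNA per cell cannot be told apart.

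For CGA the arrays labelled CPSF3 knockdown had a lower mean than control. Their mean difference was -0.22 ± 0.12 (SE), or 85.7% of control (95% interval 71.2% to 103%), and their gene levels overlapped those of the controls. All 6 CGA probe sets had a lower mean there. On 2 of the 6, 2963626 and the dim 2916120, every array labelled CPSF3 knockdown was below every control array. The share of all probe sets in that order was not computed, so nothing is read from the count. Between the RBFOX2 hairpin arrays and the arrays labelled CPSF3 knockdown the difference was -1.39, a 2.61-fold lower signal.

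NKIRAS2 was also lower on all RBFOX2 hairpin arrays, by a smaller amount than CGA. Its gene level, over 13 probe sets, was 8.97, 8.77 and 9.01 on the RBFOX2 hairpin arrays. The arrays labelled CPSF3 knockdown gave 10.22, 9.91 and 10.17 and the control arrays 10.09, 9.91 and 10.16. Every RBFOX2 hairpin array was at least 0.898 below every array of the other groups, whereas those groups covered the same range. NKIRAS2 averaged 8.92 ± 0.13 with the RBFOX2 hairpin, 10.10 ± 0.16 in the arrays labelled CPSF3 knockdown and 10.05 ± 0.13 in controls (SD, n = 3 each). The difference of the RBFOX2 hairpin arrays from control was -1.14 ± 0.12 (SE), a signal 2.20-fold lower, or 45.4% of control (95% interval 37.7% to 54.7%). It ranked 7 from the lowest of 16748 genes. The arrays labelled CPSF3 knockdown differed from control by 0.05 ± 0.12 (SE), or 103% of control (95% interval 85.8% to 124%).

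NKIRAS1 did not pass the test in any comparison. Its gene level, over 8 probe sets, was 8.60, 8.66 and 9.10 with the RBFOX2 hairpin, 8.99, 8.77 and 8.80 in the arrays labelled CPSF3 knockdown and 9.15, 8.79 and 8.62 in controls. The 3 groups overlapped throughout, and the spread within the RBFOX2 hairpin arrays and within the controls (SD 0.27 in both) was larger than any difference between means. The RBFOX2 hairpin arrays differed from control by -0.07 ± 0.16 (SE; 95% interval -0.41 to 0.27; limma adjusted p = 0.907), which is 95.2% of control with an interval of 75.1% to 121%. The arrays labelled CPSF3 knockdown differed from control by -0.0025 ± 0.16 (limma adjusted p = 0.995). The RBFOX2 hairpin arrays differed from the arrays labelled CPSF3 knockdown by -0.07 ± 0.16 (limma adjusted p = 0.903).

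**Figure D1:**
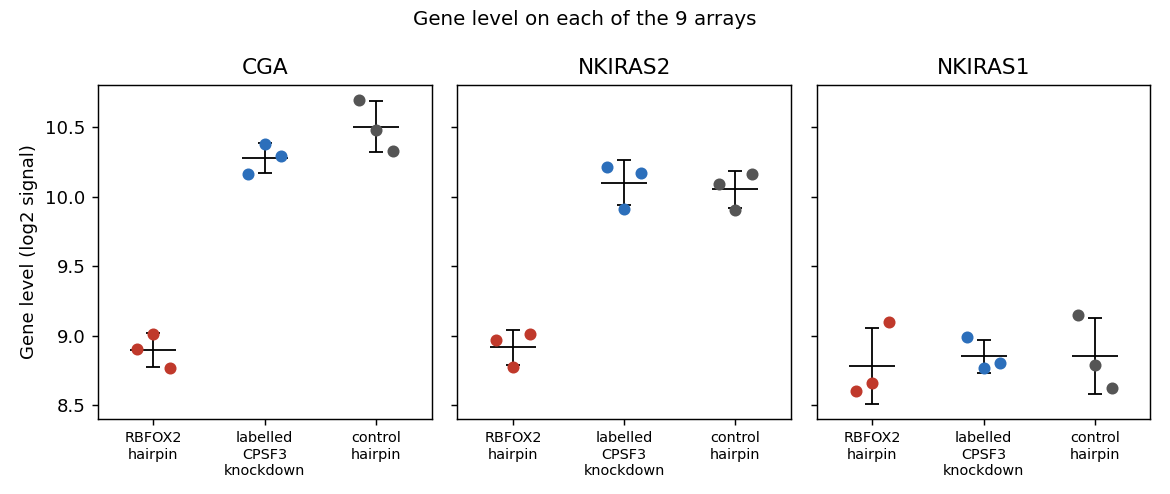
Gene level (log2 signal, vertical axis) of CGA, NKIRAS2 and NKIRAS1 on each of the 9 arrays, with the RBFOX2 hairpin arrays, the arrays labelled CPSF3 knockdown and the controls from left to right; points are arrays, and bars are the mean and SD of 3 arrays. For CGA and NKIRAS2 the 3 RBFOX2 hairpin arrays lie apart below the others, and for NKIRAS1 the groups overlap.

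As background to these differences, few genes passed the test with the RBFOX2 hairpin. Against control, 29 of 16748 genes passed the limma test (0.173%; 5 higher and 24 lower), while an unadjusted p under 0.05 was found for 2284. For the arrays labelled CPSF3 knockdown 2409 passed (14.4%), and between these and the RBFOX2 hairpin arrays 67 passed (0.4%). Among all differences between these hairpin groups CGA was the lowest and NKIRAS2 ranked 3 from the lowest. At gene level every RBFOX2 hairpin array was below every control array for 1181 genes (7.05%), and below every control and every array labelled CPSF3 knockdown for 167 genes (0.997%). CGA and NKIRAS2 belonged to both counts, as their selection required. The median gene differed from control by 0.03 with the RBFOX2 hairpin and by 0.0087 in the arrays labelled CPSF3 knockdown.

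The 2 genes were set beside the other large falls. A difference of -1 or lower from control was seen for 19 genes with the RBFOX2 hairpin. Of these 19, 17 were also lower than control by 0.5 or more in the arrays labelled CPSF3 knockdown. The other 2, CGA and NKIRAS2, were within 0.25 of control, which restates how they were selected. It also depends on the cut at -1, since CCND2 was at -0.83 with the RBFOX2 hairpin and -0.09 in the arrays labelled CPSF3 knockdown. TXNIP, an arrestin-domain protein that binds thioredoxin, was at -1.35 with the RBFOX2 hairpin and at -2.28 in the arrays labelled CPSF3 knockdown. SNHG1, whose introns hold small nucleolar RNAs, was at -1.31 with the RBFOX2 hairpin and -1.86 in the arrays labelled CPSF3 knockdown. HILPDA, a lipid droplet protein, was at -1.20 with the RBFOX2 hairpin and -1.63 in the arrays labelled CPSF3 knockdown. THOC3, a subunit of an mRNA export complex, had the smallest fall of the 17 in the arrays labelled CPSF3 knockdown, at -0.65, beside -1.01 with the RBFOX2 hairpin. Both comparisons use the same control arrays, so the values stand side by side without a measure of likeness.

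**Figure D2:**
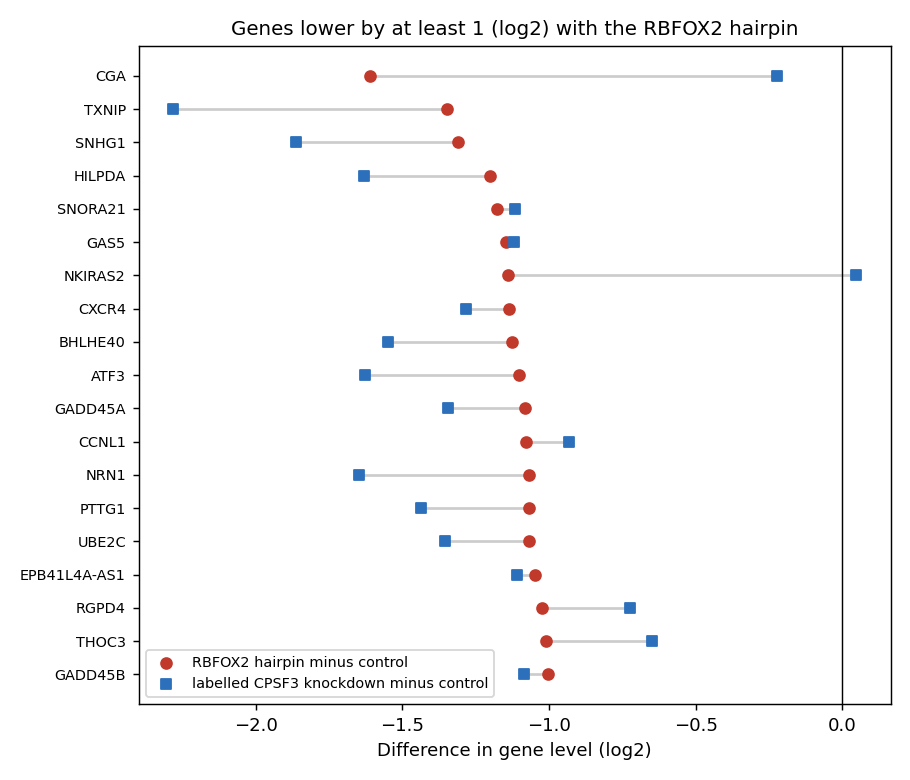
Difference in gene level from control (log2, horizontal axis) for the 19 genes at -1 or lower with the RBFOX2 hairpin; circles are the RBFOX2 hairpin arrays and squares the arrays labelled CPSF3 knockdown, each the difference between means of 3 arrays. CGA and NKIRAS2, which were selected for this pattern, are the genes whose square lies within 0.25 of 0.

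The lower CGA signal was spread over its probe sets. On 5 of 6 every RBFOX2 hairpin array was below every control array and below every array labelled CPSF3 knockdown. The same order against control held for 20529 of the 354600 probe sets with 1 symbol (5.79%), a share from which nothing is read here because the choice of CGA and NKIRAS2 used that contrast. The share of probe sets below both groups was not computed. The differences from control were between -1.72 and -1.16 on 4 of these 5, and lower still on probe set 2963623. It was at 7.38, 7.76 and 7.31 with the RBFOX2 hairpin, 8.72, 9.56 and 9.33 in the arrays labelled CPSF3 knockdown and 9.93, 9.43 and 9.10 in controls, without overlap. The brightest, 2963628, was at 10.15, 10.40 and 10.08 with the RBFOX2 hairpin, 11.20, 11.67 and 11.62 in the arrays labelled CPSF3 knockdown and 11.75, 11.65 and 11.52 in controls, a 2.69-fold lower signal. Dim and bright probe sets were both among the lower ones. Probe set 2963634 (-1.16) was also lower but had a mean under the filter. The remaining probe set, 2916120, was the dimmest. On it the RBFOX2 hairpin arrays, at 6.62, 5.51 and 5.18, overlapped both other groups. The arrays labelled CPSF3 knockdown were at 5.44, 5.01 and 5.60 and the controls at 5.60, 6.11 and 6.74. The highest array labelled CPSF3 knockdown (5.5978) was just below the lowest control (5.6).

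NKIRAS2 was less even. On 11 of its 15 probe sets every RBFOX2 hairpin array was below every control array and every array labelled CPSF3 knockdown, with differences from control between -1.54 and -0.37. The lowest was probe set 3721598, at 8.47, 8.43 and 9.01 with the RBFOX2 hairpin, 10.28, 10.21 and 10.17 in the arrays labelled CPSF3 knockdown and 10.30, 9.91 and 10.31 in controls (2.90-fold lower than control). Of all 15 probe sets, 10 were lower by 0.5 or more and 6 by 1 or more. Nothing is read from these counts, since NKIRAS2 was selected for a fall. Their shares over all probe sets were not computed. The 4 probe sets outside the 11, namely 3721580, 3721585, 3721586 and 3721593, overlapped control, with differences between -0.18 and 0.07. Probe set 3721593 was at 8.67, 8.44 and 8.58 with the RBFOX2 hairpin, 8.28, 8.53 and 8.58 in the arrays labelled CPSF3 knockdown and 8.49, 8.79 and 8.19 in controls. Probe set 3721586 was likewise level, at 8.33, 7.58 and 8.22 with the RBFOX2 hairpin, 8.06, 8.31 and 8.08 in the arrays labelled CPSF3 knockdown and 8.23, 7.76 and 8.14 in controls. The control means of these 4 ranged between 6.91 and 8.69, below or in the lower part of the range of the 11 that separated (7.34 to 11.4). The part of signal strength in this was not tested, and the position of each probe set along the gene was not used. None of the 15 had every array labelled CPSF3 knockdown below every control array, an order whose share over all probe sets was not computed.

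NKIRAS1 probe sets were tested singly. With the RBFOX2 hairpin all 9 overlapped control, with differences between -0.30 and 0.53 and a median of -0.05. Of the 8 above the filter 0 passed the limma test over all 692116 probe sets, which called 0.000433% of them, and 0 had an unadjusted p under 0.05. Likewise 0 of 8 passed in the arrays labelled CPSF3 knockdown, where the test called 1.6% of all probe sets. The smallest p there was that of 2666121, which was lower than control by 0.58 on the log2 scale (unadjusted p = 0.00923, limma adjusted p = 0.143). Every array labelled CPSF3 knockdown was below every control on that probe set and on 2666113, and above every control on the dim probe set 2666109. How many of all probe sets separate in this way was not computed, so nothing is read from these orders.

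**Figure D3:**
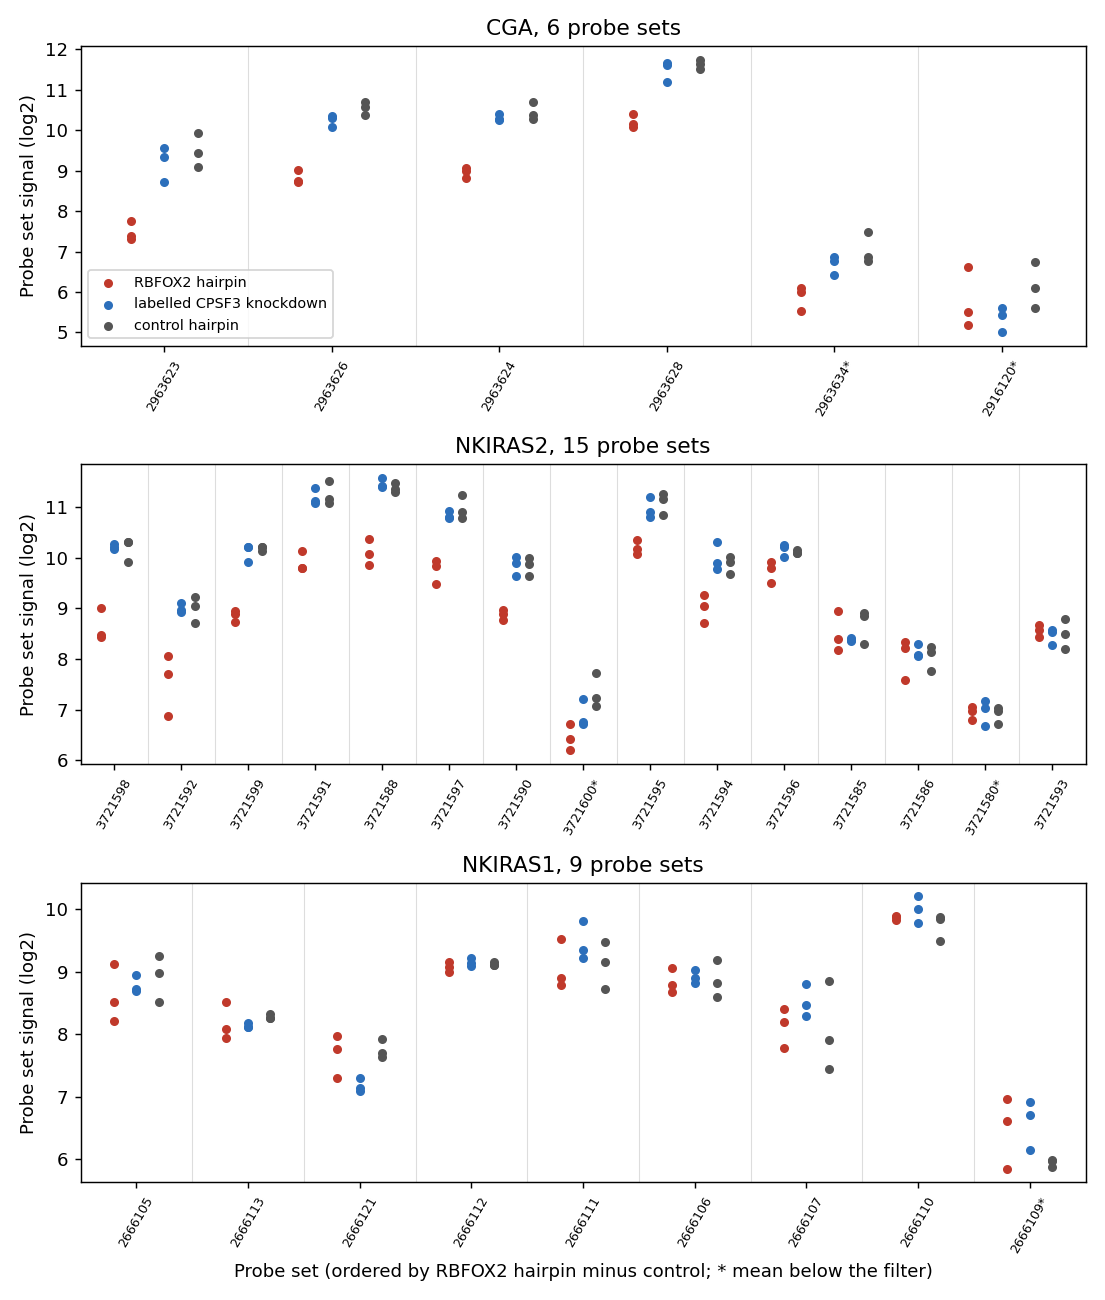
Signal (log2, vertical axis) of every probe set of CGA, NKIRAS2 and NKIRAS1 on all 9 arrays, ordered by the difference of the RBFOX2 hairpin arrays from control; each point is 1 array, with the RBFOX2 hairpin, the arrays labelled CPSF3 knockdown and the controls from left to right, and a star marks a mean below the filter. The RBFOX2 hairpin arrays lie below both other groups on 5 of 6 CGA and 11 of 15 NKIRAS2 probe sets and overlap control on all 9 of NKIRAS1. The share of all probe sets below both groups was not computed.

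The genes most like CGA and NKIRAS2 across the arrays were listed as a description. By Pearson correlation of gene level over 9 arrays, the 5 most like CGA were CHD3 (r = 0.978), a chromatin remodelling ATPase, NUP58 (0.972), a nuclear pore protein, PFN2 (0.956), an actin-binding profilin, CCND2 (0.942), the cell cycle protein cyclin D2, and NKIRAS2 itself (0.934). The 5 most like NKIRAS2 were NUTF2 (0.968), a nuclear transport factor, CCND2 (0.957), ARF3 (0.951), a GTPase of vesicle traffic, CHD3 (0.935) and CGA (0.934). CCND2 was the furthest from control of those other than the 2 selected genes, at -0.83 with the RBFOX2 hairpin and -0.09 in the arrays labelled CPSF3 knockdown. With the RBFOX2 hairpin NUTF2 was at -0.60, ARF3 at -0.46, NUP58 at -0.42, CHD3 at -0.26 and PFN2 at -0.23, and in the arrays labelled CPSF3 knockdown these 5 were between -0.04 and 0.03. A high r between CGA and NKIRAS2 follows from their selection for the same group pattern. Once each group's mean was taken away, CGA and NKIRAS2 had r = -0.559 over the 9 arrays. NKIRAS1 had r = 0.18 with CGA and 0.229 with NKIRAS2.

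Neighbouring genes in RefSeq were read for comparison with NKIRAS2 and NKIRAS1. Beside NKIRAS2 on chromosome 17, CNP, a myelin enzyme, was at 0.12 ± 0.11 with the RBFOX2 hairpin (SE; limma adjusted p = 0.697) and DNAJC7, a cochaperone, at 0.20 ± 0.11 (adjusted p = 0.469). ZNF385C, whose annotated span overlaps NKIRAS2, was at -0.20 ± 0.12 (adjusted p = 0.49). None of these 3 passed the test with the RBFOX2 hairpin, where only 0.173% of all genes passed. In the arrays labelled CPSF3 knockdown, where 14.4% of all genes passed, DNAJC7 rose by 0.53 ± 0.11 (adjusted p = 0.00803). Beside NKIRAS1 on chromosome 3, the ubiquitin-conjugating enzyme UBE2E1 was at 0.09 ± 0.14 and the ribosomal protein gene RPL15 at -0.13 ± 0.16 with the RBFOX2 hairpin, and neither passed in either comparison. Both overlap the annotated span of NKIRAS1, and what their transcripts add to its probe sets was not tested. The 4 nearest genes of CGA had no level here.

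The partners of CGA were hardly represented. Of 11 glycoprotein hormone subunit genes, 5 had a probe set with 1 symbol and 2 had a level. The level of GPHB5, the beta subunit of thyrostimulin, differed from control by 0.12 with the RBFOX2 hairpin (limma adjusted p = 0.807) and by -0.05 in the arrays labelled CPSF3 knockdown (adjusted p = 0.87), and the alpha-like subunit GPHA2 did not pass either. The median over all probe sets of FSHB was between 6.64 and 6.85 with the RBFOX2 hairpin and between 6.33 and 6.71 in controls, and that of TSHB between 5.09 and 5.38 with the RBFOX2 hairpin and between 5.33 and 5.40 in controls, so both overlapped and lay under the filter. LHB, the luteinizing hormone beta subunit, had only 2 probe sets and so no level for the test; their median was 8.74, 8.48 and 8.97 with the RBFOX2 hairpin, 8.72, 8.73 and 8.71 in the arrays labelled CPSF3 knockdown and 8.40, 8.68 and 8.53 in controls. The RBFOX2 hairpin arrays overlapped control for LHB, and the arrays labelled CPSF3 knockdown lay above every control. For TSHB the arrays labelled CPSF3 knockdown lay below every control, at 5.22, 5.17 and 4.94, and for FSHB they overlapped control. How many of all genes separate in this way was not computed, so nothing is read from these orders. The chorionic gonadotropin beta genes had no probe set of their own symbol alone. Of the 3 hormone receptors FSHR, LHCGR and TSHR, 0 passed in either comparison, where 0.173% (RBFOX2 hairpin) and 14.4% (labelled CPSF3 knockdown) of all genes passed. FSHR had the lowest p, in the arrays labelled CPSF3 knockdown (-0.40 ± 0.14, adjusted p = 0.0643).

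Transcription factors known at the CGA promoter were read next. Of 13 measured of 14, 0 passed with the RBFOX2 hairpin (3 at an unadjusted p under 0.05, median -0.0093). Of all genes 0.173% passed there and 13.6% had an unadjusted p under 0.05. In the arrays labelled CPSF3 knockdown 2 rose and 1 fell (median -0.05), where 14.4% of all genes passed (1675 higher and 734 lower). CREB1, which binds the cyclic AMP response element, rose by 0.93 ± 0.17 there (limma adjusted p = 0.00423). TFAP2A rose by 0.68 ± 0.17 (adjusted p = 0.0172), and JUN, a partner in dimers that can bind the same element, fell by 0.77 ± 0.12 on the log2 scale (adjusted p = 0.00215). With the RBFOX2 hairpin the same 3 genes had differences of the same sign that missed the threshold. They were JUN at -0.61 ± 0.12 (adjusted p = 0.0588), CREB1 at 0.66 ± 0.17 (adjusted p = 0.123) and TFAP2A at 0.66 ± 0.17 (adjusted p = 0.123). Both comparisons use the same control arrays, so the equal signs are not separate observations. None of the 3 passed in the direct test between the hairpin groups.

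The NF-kappaB pathway, in which the NKIRAS proteins act, was read beside the shares of all genes. With the RBFOX2 hairpin 0.173% of all genes passed and 13.6% had an unadjusted p under 0.05. Of 16 subunits, inhibitors and kinases, 0 passed there (2 at an unadjusted p under 0.05; median 0.03), with the smallest p for BTRC, the ubiquitin ligase subunit that recognises phosphorylated inhibitors (0.59 ± 0.15, limma adjusted p = 0.124). Among the 16, 3 rose and 1 fell in the arrays labelled CPSF3 knockdown (median 0.09), against 14.4% of all genes that passed there. BTRC rose by 0.86 ± 0.15 (adjusted p = 0.00408), NFKB1, the p105 and p50 subunit gene, by 0.73 ± 0.20 (adjusted p = 0.0255) and the kinase CHUK by 0.51 ± 0.12, and NFKB2 fell by 0.45 ± 0.12 on the log2 scale (adjusted p = 0.0215). Of 25 measured of 28 NF-kappaB target genes, 0 passed with the RBFOX2 hairpin (6 at an unadjusted p under 0.05; median -0.06), and TNF had the smallest p (-0.78 ± 0.16, adjusted p = 0.0745). Of these 25, 4 fell and 0 rose in the arrays labelled CPSF3 knockdown (median -0.07; 14.4% of all genes passed). They include the early response gene IER3 (-0.75 ± 0.14, adjusted p = 0.00435) and the chemokine CCL2 (adjusted p = 0.00411), the lowest of the 4. The median gene of the array was near 0 in both comparisons, as given above.

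RAS-like GTPases and regulators of Ral were read as the family around NKIRAS1 and NKIRAS2. Of 28 measured of 31, 0 passed with the RBFOX2 hairpin (1 at an unadjusted p under 0.05, median 0.0026), where 0.173% of all genes passed. Differences ranged between -0.26 and 0.38, the highest being that of RERG (0.38 ± 0.17, limma adjusted p = 0.324). NKIRAS2 was thus further from control than any other measured gene of this family, a description since NKIRAS2 was selected for it. The arrays labelled CPSF3 knockdown gave 1 rise and 1 fall (14.4% of all genes passed), namely RALGAPB, a subunit of the Ral GTPase-activating complexes (0.46 ± 0.13, adjusted p = 0.0269), and RRAS (-0.61 ± 0.13, adjusted p = 0.00803). Over all 7 lists 0 of 89 measured genes passed with the RBFOX2 hairpin, and 13 of them (14.6%) had an unadjusted p under 0.05, against 13.6% of all genes. Of the same 89 genes, 13 passed in the arrays labelled CPSF3 knockdown (14.6%, against 14.4% of all genes), 6 higher and 7 lower. In the direct test between the RBFOX2 hairpin arrays and the arrays labelled CPSF3 knockdown 0 of the 89 passed, with 6 (6.74%) at an unadjusted p under 0.05, against 13.3% of all genes. The count with the RBFOX2 hairpin rested on the arrays used, since it was 9 without control replicate 3 and 11 with array weights. Over all genes 1546 and 1513 were called in these settings. Without control replicate 3, 23.6% of the 89 had an unadjusted p under 0.05, against 22.2% of all genes. With array weights it was 24.7% against 24.4%. JUN, TNF, BTRC, CREB1, TFAP2A and RBFOX2 were among the genes called in both of these settings.

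**Figure D4:**
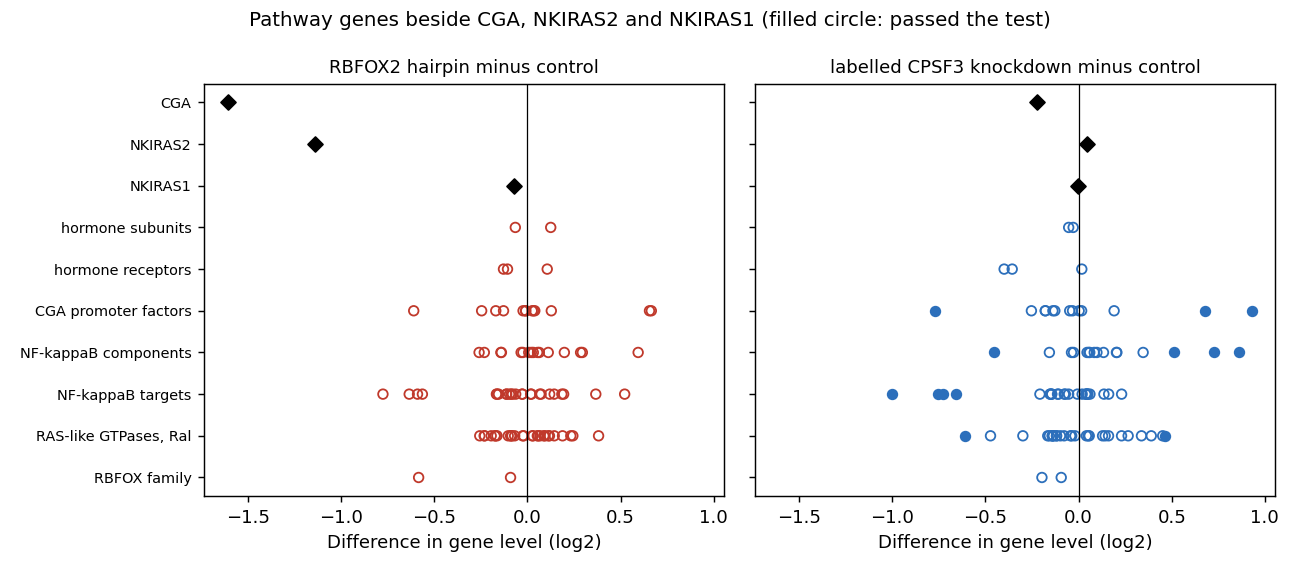
Difference in gene level from control (log2, horizontal axis) for CGA, NKIRAS2 and NKIRAS1 (diamonds) and for the measured genes of 7 pathway lists (circles), with the RBFOX2 hairpin arrays in the left panel and the arrays labelled CPSF3 knockdown in the right panel; each point is 1 gene, filled where its limma adjusted p was under 0.05. On the left 0 of 89 list genes passed the test (0.173% of all genes did) and all lay closer to 0 than CGA and NKIRAS2. On the right 13 passed (14.4% of all genes did).

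The labels were checked on the targeted genes and on markers. RBFOX2 averaged 8.94 ± 0.11 with the RBFOX2 hairpin, 9.33 ± 0.07 in the arrays labelled CPSF3 knockdown and 9.53 ± 0.14 in controls (SD, n = 3 each), a difference from control of -0.58 ± 0.12 with the RBFOX2 hairpin (SE; limma adjusted p = 0.0617). CPSF3 averaged 9.38 ± 0.19 in the arrays labelled CPSF3 knockdown and 9.47 ± 0.29 in controls (adjusted p = 0.752), so its signal did not separate that group. Of the 3 RBFOX genes 2 had a level and 0 passed in either comparison, where 0.173% (RBFOX2 hairpin) and 14.4% (labelled CPSF3 knockdown) of all genes passed. Of 6 genes that HEK293 cells are known to express, 1 fell with the RBFOX2 hairpin (ENO2) and 4 fell in the arrays labelled CPSF3 knockdown. Over all 16748 genes 24 fell with the RBFOX2 hairpin and 734 in the arrays labelled CPSF3 knockdown. The summed linear signal of the 6 genes ranged from 5014.2 to 5498.6 with the RBFOX2 hairpin, 3818.5 to 4144.5 in the arrays labelled CPSF3 knockdown and 6036.3 to 7198.9 in controls. The sums for cell types known to express CGA overlapped control. The summed signal of 7 of 9 pituitary markers ranged from 1217.9 to 1259.1 with the RBFOX2 hairpin and 1029.5 to 1237.6 in controls, and that of 7 of 11 trophoblast markers from 1273.6 to 1321.6 with the RBFOX2 hairpin and 1214.1 to 1468.3 in controls, and 0 of the 5 with a level passed the test with the RBFOX2 hairpin, while HSD3B1 of the trophoblast list rose in the arrays labelled CPSF3 knockdown (0.51, limma adjusted p = 0.0144). The sums for blood (6 of 7 genes) ranged from 706.47 to 750.92 with the RBFOX2 hairpin and 604.81 to 688.78 in controls. They did not overlap although 0 of its genes passed the test, and how often such sums separate was not computed. For endothelium (6 of 6 genes) they ranged from 695.27 to 726.65 with the RBFOX2 hairpin and 665.26 to 833.76 in controls, and for fibroblasts (7 of 7) from 1278.4 to 1386.9 with the RBFOX2 hairpin and 1335.1 to 1377.9 in controls, and 0 of these genes passed in either comparison. Since array signal has no zero, no marker could be read as absent, and the part of these lists in the CGA and NKIRAS2 differences was not tested. Control replicate 3 and RBFOX2 hairpin replicate 3 correlated less with their own groups (mean r = 0.9672 and 0.9707) than with the others (0.9723 and 0.9751). Without control replicate 3, CGA was at -1.69 and NKIRAS2 at -1.09 with the RBFOX2 hairpin. Without RBFOX2 hairpin replicate 3, CGA was at -1.55 and NKIRAS2 at -1.19.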

How the data were processed

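Total RNA of Flip-In-293 cells was measured on 9 exon arrays, 3 per group. The authors deposited log2 signals per probe set, made with RMA and Affymetrix Power Tools on the build hg18, per the submitters' processing notes. The Exon Array Computational Tool is named in the series text. The sources used here give no versions. RMA compresses changes of weak probe sets.

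Probe sets with 1 gene symbol were used (14898 with several and 1014733 with none were not). A probe set entered if its mean over all arrays was at least 6.97, which is the median of all probe sets, and 692116 did so (266506 with 1 gene). Gene levels are medians of at least 3 such probe sets, for 16748 genes. They were fitted with lmFit and eBayes (limma 3.58.1, R 4.3.3) in 1 model of 3 groups with no block. Tests were 2-sided, with Benjamini-Hochberg adjustment over all features at 0.05. Fits were tested on simulated data.

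The members and the 7 pathway and 6 marker lists were chosen with earlier results of these data known. Named genes are the members; up to 2 highest and 2 lowest called genes per list and comparison, or the smallest p where none was called; the 5 most correlated with CGA and with NKIRAS2; and the 2 RefSeq neighbours on each side. Other genes (the 3 largest other falls, THOC3, CHUK, FSHB, TSHB, LHB, ENO2 and HSD3B1) were named after their values were seen. Promoter sequences are from RefSeq on GRCh38.p14. Alternatives changed the filter (none, or the upper quartile, 8.36), the mean as gene level, quantile normalisation, a replicate block, array weights, the variance model, the groups in the fit and each array left out.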

Additional observations from a re-analysis of the deposited data

How the results depend on the processing

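The gene level differences of the members from control, that of NKIRAS1 between the hairpin groups, and the counts of all genes and of pathway genes called against control were recomputed under 17 other settings; the other values were not. With the RBFOX2 hairpin CGA stayed between -1.82 and -1.51 and NKIRAS2 between -1.21 and -0.872; the ends came without a filter for CGA (-1.82), and NKIRAS2 was at -1.01 without a filter and at -0.872 with the mean as gene level. In the arrays labelled CPSF3 knockdown CGA ranged from -0.309 to -0.126 and NKIRAS2 from -0.0565 to 0.141. NKIRAS1 passed the test in none of these settings, and its sign changed. In the arrays labelled CPSF3 knockdown it was 0.0439 without a filter, 0.0785 with the stricter filter and 0.0357 with the mean, -0.228 with array weights, and -0.119 to 0.146 when 1 array was left out. With the RBFOX2 hairpin it was -0.256 with array weights and -0.227 to 0.0786 when 1 array was left out, and against the arrays labelled CPSF3 knockdown -0.225 to 0.0255. The 29 genes called with the RBFOX2 hairpin became 7 without a filter, 44 with the mean, 137 with the replicate block, 1513 with array weights and 5 with only the compared groups; leaving out 1 array gave 2 to 1546, with 2 without control replicate 1, 9 without control replicate 2 and 1546 without control replicate 3, 7 and 2 without RBFOX2 hairpin replicates 1 and 3, and 11 without replicate 2 or 3 of the arrays labelled CPSF3 knockdown. In the arrays labelled CPSF3 knockdown the 2409 became 4817 with array weights and 965 to 3429 when 1 array was left out, being 1082 without control replicate 1, 1205 without control replicate 2, and 965 and 1466 without replicates 1 and 2 of that group. Pathway genes called with the RBFOX2 hairpin were 2 with the stricter filter, 2 with the mean, 3 with the replicate block, 11 with array weights and 0 to 9 when 1 array was left out; in the arrays labelled CPSF3 knockdown they were 22 with array weights and 7 to 15 when 1 array was left out, with 8 without replicate 1 of that group and 7 without control replicate 1. The pathway counts are not read apart from the counts of all genes in the same settings. In the arrays labelled CPSF3 knockdown, 32.6% of pathway genes had an unadjusted p under 0.05 with array weights, against 39.2% of all genes. Without control replicate 1 it was 19.1% against 22.9%. The cause of the shifts in these counts and differences was not tested. Replicate numbers are shared between groups, but deviations of same-numbered arrays from their group means correlated between -0.143 and 0.332, and not every array correlated best with its own number, so the block pairs arrays by number alone. The number of arrays limits the precision, and dim probe sets such as the last of CGA carry little information.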
